A study of Mus musculus with 14 samples.

Results

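Lbh, Serpine2, Cspg5, Egflam and Tmprss5 were examined in bulk RNA-seq of mouse plexiform neurofibromas (PNs), the benign nerve sheath tumors of neurofibromatosis type 1. The 5 genes were found by symbol among the 24062 genes of the count table, and all 5 passed the filter on low counts in every comparison described. They had been picked as glial genes with higher counts in fast- than in slow-growing PNs, so the fast versus slow difference chose them and is described without a test. Whole tissue was sequenced, so these counts do not show which cells a transcript came from, and fewer cells of a type and less RNA per cell cannot be told apart.

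Controls were dorsal root ganglia (DRGs) with their nerves from Nf1fl/fl mice (n = 3), which carry the floxed allele without Cre. The sample labels give this genotype, while the series title speaks of wild type. PNs came from DhhCre;Nf1fl/fl mice (n = 11), in which Cre driven by Dhh acts in the Schwann cell (SC) lineage, and the other cells of the tumor keep Nf1. By MRI over 2 months, slow-growing PNs (n = 5) had changed in volume by less than 5 mm3 and fast-growing PNs (n = 6) had gained more than 35 mm3. All mice were without drug treatment and on a mixed background of C57BL/6, I-129 and FVBN, and the Methods give their age as 9 months, although elsewhere the paper calls the PNs of the bulk RNA-seq 7 months old. Tumor volumes of single mice were not used here, so growth enters only as these groups.

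SCs make the myelin of peripheral nerves or, as nonmyelinating SCs, wrap thin axons, and after nerve injury or loss of Nf1 they can leave these states and divide. They also lay down a basal lamina, which they hold through receptors such as dystroglycan, and they read axonal neuregulin through ErbB receptors. The 5 genes act at different places in and around such cells. Lbh encodes a transcription cofactor of the nucleus, Serpine2 a secreted inhibitor of thrombin and plasminogen activators, Cspg5 a membrane proteoglycan with an EGF-like domain, Egflam the matrix protein pikachurin, and Tmprss5 a serine protease anchored in the plasma membrane.

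The libraries held 9596773 to 17594164 counts, with a median of 10627393 for controls, 11707116 for slow growers and 14459516 for fast growers. Levels are given as CPM (a gene's counts scaled to the TMM-adjusted library size), and 3 counts corresponded to 0.167 to 0.313 CPM, a floor that covers counting error only. Nf1 itself ranged from 129 to 227.5 CPM in controls and from 224.6 to 293.7 CPM in PNs, and since these are counts over the whole gene in mixed tissue, they do not check its deletion. Markers of SCs were present in every library. Skeletal muscle and fat markers, which do not belong to nerve, were highest in controls. Fast-growing PN 4 stood apart from the other fast-growing PNs by its low neuron markers, given with the tissue results. Replicate numbers only name the libraries, and p-values measure the spread between libraries labelled as separate samples.

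Promoter sequence is shown so that shared or unshared motifs can be read beside the levels of the 5 genes, which were chosen on fast versus slow. RefSeq promoters of GRCm38.p6 (the build of mm10) were matched for 4 of the 5 genes. Bases lying in an annotated exon are left out, which removes the whole sequence of the Tmprss5 windows. One of their 2 windows held TGANTCA, 38 bases before its start site. The motifs searched on both strands were AACAAT and ACAAAG of SOX factors, TGANTCA of AP-1, and GGAATG of TEAD factors, and capitals mark each match. Shown in the direction of transcription are the Lbh promoter (chr17:72918055-72918304, plus strand), the Serpine2 promoter (chr1:79858697-79858915, minus strand) and the Egflam promoter (chr15:7398396-7398645, minus strand).
Lbh: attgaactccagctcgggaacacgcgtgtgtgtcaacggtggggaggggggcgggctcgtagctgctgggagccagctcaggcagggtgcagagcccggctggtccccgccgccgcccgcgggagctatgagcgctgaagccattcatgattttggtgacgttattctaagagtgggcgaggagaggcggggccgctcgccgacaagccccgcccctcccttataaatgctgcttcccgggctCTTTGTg
Serpine2: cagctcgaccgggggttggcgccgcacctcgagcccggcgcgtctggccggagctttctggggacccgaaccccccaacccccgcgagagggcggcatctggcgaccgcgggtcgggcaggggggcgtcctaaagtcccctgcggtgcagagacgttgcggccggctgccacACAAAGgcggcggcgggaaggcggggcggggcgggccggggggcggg
Egflam: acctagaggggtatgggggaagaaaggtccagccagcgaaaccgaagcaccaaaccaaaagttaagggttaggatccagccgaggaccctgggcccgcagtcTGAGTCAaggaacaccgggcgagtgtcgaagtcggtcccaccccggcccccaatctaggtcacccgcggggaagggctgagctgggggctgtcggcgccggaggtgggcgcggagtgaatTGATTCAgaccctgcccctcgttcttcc
The Lbh window held ACAAAG on the minus strand, printed as CTTTGT, its first capital 7 bases before the start site. The Serpine2 window held the same motif on the strand printed, the minus strand of the chromosome, 78 bases before its start site. The Egflam window held TGANTCA at 148 and at 28 bases before its start site, and neither of the SOX motifs. ACAAAG was present in 16.5% of the 27025 promoters of the reference and TGANTCA in 6.87%, against 9.65% for AACAAT and 12.6% for GGAATG. No motif was found in all 3 of the printed windows. The G+C content was 64.8% for Lbh, 78.8% for Serpine2 and 63.2% for Egflam, against a median of 52% over all promoters.

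All 5 genes were higher in fast-growing PNs than in slow-growing PNs, by choice, and 4 of them were also higher in PNs as a whole than in control DRGs and nerves. Against controls, 4 of the 5 were called higher in PNs (edgeR, adjusted p under 0.05), against 12.9% of the 16283 genes tested that were called higher and 26.3% called in either direction. All 11 PNs were above all controls for 3 of the 5 (Lbh, Cspg5 and Tmprss5), against 8.51% of genes. The same 3 also kept controls, slow-growing and fast-growing PNs apart in that order, which 0.301% of genes did. The fast versus slow part of that order was fixed by the choice of the genes, and 6 of the 11 PNs are the libraries whose high levels chose them, so the PN versus control calls are not independent of that choice. Over all genes the 4283 calls in PNs versus controls became 4264, 2476 and 2061 without control 1, 2 or 3. Of these, 2102, 1022 and 916 were higher. Without fast-growing PN 1, 2 or 5 they became 3806, 3822 and 3667, of which 1716, 1710 and 1584 were higher. With muscle and fat scores (mean levels of marker lists) as covariates 513 genes were called, 281 of them higher. With the pan-Schwann score, another such mean, 282 were called, 216 of them higher. Of the 5 genes, 1 was called without control 1, 2 or 3 and 2 without fast-growing PN 1, 2 or 5. With either set of covariates 0 were called. In fast versus slow, where every fast-growing PN exceeded every slow-growing PN for all 5 by choice, 2.13% of 15465 genes showed such a separation and 1.27% were called by edgeR, 0.802% higher. These 196 calls became 2 without slow-growing PN 1, 3 or 5 or fast-growing PN 1 or 4, 3 without fast-growing PN 3, 8 without fast-growing PN 6 and 65 without fast-growing PN 5. They became 1194 without slow-growing PN 2, 578 without slow-growing PN 4 and 372 without fast-growing PN 2, and with muscle and fat scores as covariates edgeR called 0. The median log2 fold change over all genes tested was 0.10 in PNs versus controls and −0.03 in fast versus slow.

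**Figure D1:**
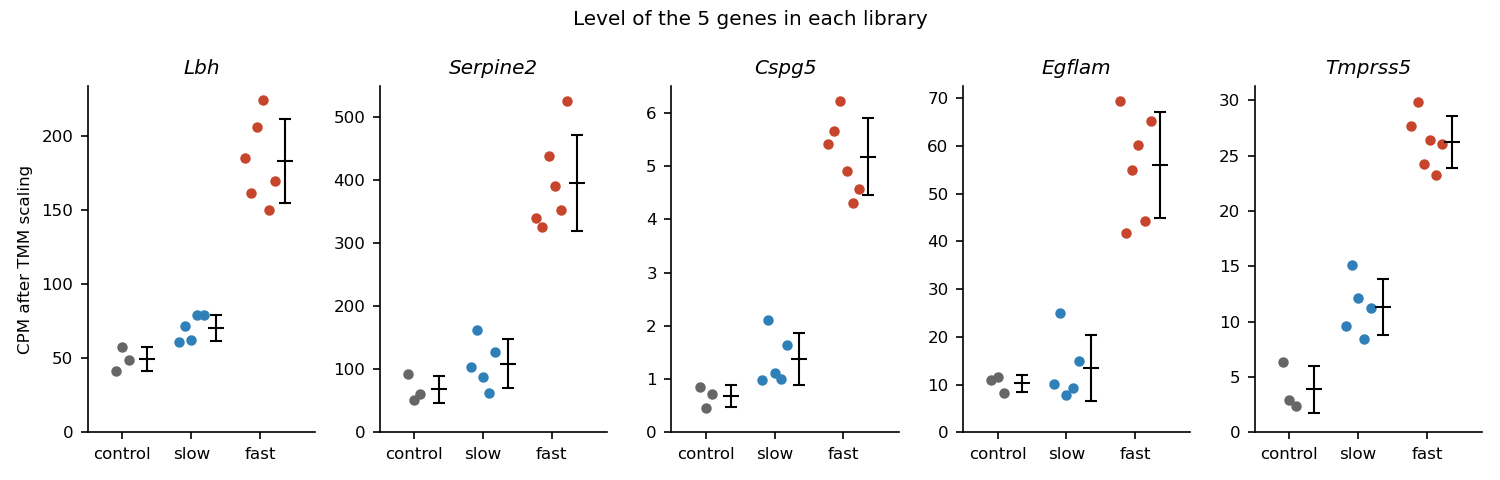
Level of each gene (CPM after TMM scaling, linear axis from 0) in every library of control, slow-growing and fast-growing tissue, 1 point per library, with the group mean and SD beside the points. All fast-growing PNs lie above all slow-growing PNs in each panel, and slow-growing PNs overlap controls for Serpine2 and Egflam.

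Lbh encodes a small transcription cofactor that is known as a target of WNT signaling in other tissues. It lies on chromosome 17 (mm10 72918305 to 72941947, plus strand), with 3 exons in its longest coding transcript. In controls Lbh was at 41.6, 58.0 and 48.9 CPM. In slow-growing PNs it was at 60.9, 71.9, 62.6, 79.1 and 79.5 CPM. In fast-growing PNs the lowest, median and highest levels were 150, 178 and 225 CPM. The 3 groups formed 3 separate bands, and the band of slow-growing PNs lay close to the controls, its lowest level 1.05 times the highest control. The means were 49.5 ± 8.22 CPM in controls (SD, n = 3), 70.8 ± 8.83 CPM in slow-growing PNs (SD, n = 5) and 183 ± 28.4 CPM in fast-growing PNs (SD, n = 6). Lbh had the smallest spread of the 5 genes among slow-growing PNs, with a coefficient of variation of 12.5%.

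Lbh was 1.37 higher on the log2 scale in fast- than in slow-growing PNs (SE 0.14), the difference that chose it. PNs as a whole exceeded controls by 1.40 (SE 0.44, 2.64-fold), which passed edgeR's quasi-likelihood test at a Benjamini-Hochberg adjusted p of 0.0316, with all 11 PNs above all 3 controls. Slow-growing PNs lay 0.45 above controls on the same scale (SE 0.17). The PN versus control call was lost without control 1, 2 or 3 or without fast-growing PN 1, 2 or 5, with adjusted p between 0.0518 and 0.120 in those fits and log2 fold changes of 1.29 to 1.53. The log2 fold change was −0.20 with muscle and fat scores as covariates (SE 0.54, edgeR adjusted p = 0.853). It was 0.36 with the pan-Schwann score (SE 0.89, edgeR adjusted p = 0.839).

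Of 11 tested genes of the WNT pathway, 2 rose and 1 fell in PNs versus controls by edgeR. The median log2 fold change of the list was −0.43, against 0.10 over all genes. Ctnnb1, which encodes beta-catenin, rose by 0.46 (SE 0.13, edgeR adjusted p = 0.0206). Axin2, the standard reporter of beta-catenin signaling, fell by 0.58 (SE 0.18, edgeR adjusted p = 0.0297). Ccnd1, the cyclin D1 gene that many other pathways also raise, rose by 2.60 (SE 0.87, edgeR adjusted p = 0.0401). None of the 3 calls held without control 2 or without control 3. Between fast- and slow-growing PNs none of 11 passed edgeR, with 1 at an unadjusted p under 0.05 and 1 called by DESeq2. Leaving out 1 library gave at most 1 call there.

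Serpine2 encodes protease nexin-1, which glial cells secrete and which neutralizes thrombin, urokinase and tissue plasminogen activator at the cell surface. It lies on chromosome 1 (mm10 79794197 to 79861180, minus strand). Serpine2 was at 92.4, 51.7 and 60.8 CPM in the controls. The slow-growing PNs had 104, 163, 88.1, 61.9 and 128 CPM. The fast-growing PNs had a lowest level of 326, a median of 372 and a highest of 526 CPM. Slow-growing PNs 3 and 4 fell within the range of the controls, and every fast-growing PN exceeded the highest slow-growing one. The means were 68.3 ± 21.4 CPM in controls (SD, n = 3), 109 ± 38.6 CPM in slow-growing PNs (SD, n = 5) and 396 ± 75.5 CPM in fast-growing PNs (SD, n = 6).

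The log2 difference of Serpine2 that chose it, fast versus slow, was 1.86 (SE 0.24). PNs exceeded controls by 1.94 on the log2 scale (SE 0.64, 3.84-fold), with an edgeR adjusted p of 0.0378, and 9 of 11 PNs lay above every control. Slow-growing PNs lay 0.62 above controls (SE 0.33). The call was lost in 8 of the 14 fits that left out 1 library, namely without control 1, 2 or 3 and without fast-growing PN 1, 2, 3, 4 or 5, with adjusted p from 0.0505 to 0.150 and log2 fold changes from 1.78 to 2.22. With covariates the estimates were −0.42 (SE 0.71) for muscle and fat scores and −0.99 (SE 1.05) for the pan-Schwann score. Each was smaller than its SE, and neither passed.

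Of 11 tested genes that act with Serpine2 in the plasminogen and thrombin systems, 1 rose and 1 fell in PNs. Plat, tissue plasminogen activator and a direct target of the inhibitor, rose from 22.7 ± 9.30 CPM in controls to 36.8 ± 13.2 CPM among slow-growing and 96.7 ± 22.1 CPM among fast-growing PNs (SD, n = 3, 5 and 6). Its log2 fold change was 1.60 in PNs versus controls (SE 0.54, edgeR adjusted p = 0.0403) and 1.39 in fast- versus slow-growing PNs (SE 0.27, edgeR adjusted p = 0.0449). Plaur, the urokinase receptor, fell by 1.13 in PNs (SE 0.32, edgeR adjusted p = 0.0179). The count of 2 in PNs versus controls was 0 without control 3 and 1 without control 2 or without any 1 of the 6 fast-growing PNs, and the fast versus slow call of Plat was lost without slow-growing PN 1, 3 or 5 or fast-growing PN 1, 3, 4, 5 or 6. Without slow-growing PN 2, 3 genes of the list were called in fast versus slow.

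Cspg5 encodes neuroglycan C, a membrane chondroitin sulfate proteoglycan known from neurons and glia whose EGF-like domain can act on ErbB3. It lies on chromosome 9 (mm10 110243783 to 110262576, plus strand). Cspg5 had the lowest counts of the 5 genes, also per kilobase of transcript. In controls it reached 0.86, 0.46 and 0.73 CPM, from 5 to 10 counts per library. In slow-growing PNs it reached 0.99, 2.10, 1.12, 1.01 and 1.64 CPM, from 11 to 28 counts. In fast-growing PNs the levels ran from 4.30 to 6.22 CPM with a median of 5.16, from 58 to 97 counts. The 3 groups did not overlap, although the lowest slow-growing PN was only 1.15 times the highest control, a gap that so few counts cannot resolve. The means were 0.68 ± 0.20 CPM in controls (SD, n = 3), 1.37 ± 0.49 CPM in slow-growing PNs (SD, n = 5) and 5.18 ± 0.72 CPM in fast-growing PNs (SD, n = 6).

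Cspg5 was chosen by a log2 difference of 1.90 between fast- and slow-growing PNs (SE 0.25). In PNs versus controls it rose by 2.31 (SE 0.70, 4.96-fold), with an edgeR adjusted p of 0.0245 and all 11 PNs above all 3 controls. The call was lost without control 1, 2 or 3 (adjusted p 0.0513, 0.114 and 0.0948, with log2 fold changes of 2.52, 2.09 and 2.36). It was also lost with limma-voom in place of edgeR (log2 fold change 2.06, adjusted p = 0.132). The same held with muscle and fat scores as covariates (0.15, SE 0.87, edgeR adjusted p = 0.932). With the pan-Schwann score the estimate was −0.26 (SE 1.16, edgeR adjusted p = 0.915).

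Among 5 tested proteoglycan genes of the same class, 2 rose and 1 fell in PNs. Vcan, versican of the matrix, rose by 2.36 (SE 0.65, edgeR adjusted p = 0.0155), and Ptprz1, a receptor phosphatase that carries chondroitin sulfate, rose by 1.96 (SE 0.47, edgeR adjusted p = 0.00739). Ncan, neurocan, fell by 1.60 (SE 0.49, edgeR adjusted p = 0.0253). Without control 3 the count was 1. None of the 5 passed in fast versus slow by edgeR, with 2 at an unadjusted p under 0.05 and 2 called by DESeq2. Fits without 1 library called 0 to 2 in that comparison.

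Of 8 neuregulin and ErbB genes, 2 rose in PNs versus controls by edgeR. Erbb3, the neuregulin receptor of SCs, rose by 2.15 (SE 0.45, adjusted p = 0.0031), and Erbb2, its signaling partner, by 1.51 (SE 0.37, adjusted p = 0.0082). The count was 1 without control 2 or without control 3. In fast versus slow, none passed edgeR (at most 1 without 1 library), 4 had an unadjusted p under 0.05 and 2 were called by DESeq2. Erbb3 was at 81.9 ± 51.4 CPM among slow-growing and 131 ± 9.55 CPM among fast-growing PNs (SD, n = 5 and 6), and these ranges overlapped.

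Egflam encodes pikachurin, a secreted matrix protein with EGF-like and laminin G-like domains that binds dystroglycan at retinal synapses. It lies on chromosome 15 (mm10 7206120 to 7398395, minus strand), and it has an exon that overlaps an exon of Gm16029 on the opposite strand, so their reads could be told apart only by strand-aware counting, a setting not given in the sources used here. Egflam was at 10.9, 11.5 and 8.34 CPM in controls. It was at 10.1, 25.0, 7.86, 9.34 and 15 CPM in slow-growing PNs. The fast-growing PNs ran from 41.8 to 69.4 CPM with a median of 57.6. Slow-growing PNs 1, 3 and 4 were within or below the range of the controls, slow-growing PN 2 had more than any other slow-growing PN, and every fast-growing PN was at least 1.68 times the highest slow-growing one.

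The Egflam means were 10.3 ± 1.69 CPM in controls (SD, n = 3), 13.5 ± 6.97 CPM in slow-growing PNs (SD, n = 5) and 56.0 ± 11.1 CPM in fast-growing PNs (SD, n = 6). Its fast versus slow difference, 2.05 on the log2 scale (SE 0.30), was the largest of the 5. Its slow versus control difference, 0.34 (SE 0.39), was the smallest. In PNs versus controls Egflam was 1.82 higher (SE 0.70), which did not pass (edgeR adjusted p = 0.0694), and 8 of 11 PNs lay above every control. It passed without slow-growing PN 3 (adjusted p = 0.0443, log2 fold change 1.90) and without slow-growing PN 4 (adjusted p = 0.0408, log2 fold change 1.92), with DESeq2 (adjusted p = 0.0177) and in a fit of the 3 groups (adjusted p = 0.00515). Its log2 fold change was −1.11 (SE 0.83) with muscle and fat scores and −1.12 (SE 1.36) with the pan-Schwann score as covariates. It was not called in either fit.

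Of 19 tested genes of the dystroglycan complex and its ligands, 8 rose and 1 fell in PNs versus controls, with a list median of 0.63 on the log2 scale. Agrn, agrin, a matrix ligand of dystroglycan, rose by 1.56 (SE 0.31, edgeR adjusted p = 0.00241), and Dmd, dystrophin, which ties the complex to the cytoskeleton, by 1.08 (SE 0.26, edgeR adjusted p = 0.00788). Pomt2, which starts the sugar chain that such ligands bind, rose by 0.88 (SE 0.14, edgeR adjusted p = 0.000399). Sgce, a sarcoglycan, rose by 1.09 (SE 0.25, edgeR adjusted p = 0.00597). The count was 3 without control 2 or without control 3. In fast versus slow 1 of 19 fell, Drp2, a dystrophin-related protein of the myelin sheath, by 1.78 (SE 0.36, edgeR adjusted p = 0.0449). That count was 0 without slow-growing PN 1, 3 or 5 or fast-growing PN 1, 3, 4, 5 or 6, 5 without slow-growing PN 2 and 4 without slow-growing PN 4.

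Tmprss5 encodes spinesin, a type II transmembrane serine protease described in the spinal cord. It lies on chromosome 9 (mm10 49081260 to 49117587, plus strand). Tmprss5 was at 6.35, 2.93 and 2.40 CPM in controls. It was at 9.64, 15.1, 12.2, 8.42 and 11.3 CPM in slow-growing PNs. In fast-growing PNs the lowest, median and highest levels were 23.3, 26.2 and 29.9 CPM. The 3 groups did not overlap, the lowest slow-growing PN being 1.33 times the highest control and the lowest fast-growing PN 1.54 times the highest slow-growing one. The means were 3.89 ± 2.14 CPM in controls (SD, n = 3), 11.3 ± 2.56 CPM in slow-growing PNs (SD, n = 5) and 26.3 ± 2.36 CPM in fast-growing PNs (SD, n = 6). The fast-growing PNs varied least for this gene, with a coefficient of variation of 8.99%.

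Tmprss5 differed by 1.21 on the log2 scale between fast- and slow-growing PNs (SE 0.15), the smallest of the differences that chose the 5 genes. Its slow versus control difference, 1.48 (SE 0.37), was the largest of the 5. In PNs versus controls it rose by 2.30 (SE 0.48, 4.92-fold), with an edgeR adjusted p of 0.00329 and all 11 PNs above all 3 controls. This call held with each of the 14 libraries left out in turn, with adjusted p from 0.00166 to 0.0298. It was lost with muscle and fat scores as covariates (log2 fold change 1.12, SE 0.62, edgeR adjusted p = 0.334). It was also lost with the pan-Schwann score as a covariate (0.37, SE 0.56, edgeR adjusted p = 0.724).

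Of 7 tested proteases of the same class, 2 rose in PNs. Corin, which activates natriuretic peptides in the heart, rose by 4.02 (SE 1.01, edgeR adjusted p = 0.00994), and Tmprss13 by 2.04 (SE 0.51, edgeR adjusted p = 0.00961). The count was 0 without control 2, 1 without control 3 and 4 without the filter on low counts. Corin was at 2.06 ± 1.63 CPM in controls, 12.8 ± 13.2 CPM among slow-growing and 52.0 ± 11 CPM among fast-growing PNs (SD, n = 3, 5 and 6). Tmprss13 averaged 2.08 CPM in fast-growing PNs. None of 6 tested members passed in fast versus slow by edgeR (at most 1 without 1 library), with 1 at an unadjusted p under 0.05 and 1 called by DESeq2.

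Per kilobase of the longest coding transcript, the levels in fast-growing PNs ranked Serpine2 first at 179 CPM per kb, then Lbh at 59.7, Egflam at 11.7, Tmprss5 at 9.07 and Cspg5 at 0.658. The order of Egflam and Tmprss5 turned with the transcript used, since the first listed transcript of Tmprss5 gave 12.8 CPM per kb against 11.7 for Egflam. In controls the same order held, from 30.9 CPM per kb for Serpine2 to 0.0866 for Cspg5. In slow-growing PNs Tmprss5 at 3.91 CPM per kb passed Egflam at 2.82.

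The ratios of group means are given side by side, with no test between genes, since the fast to slow ratio is the quantity that chose them. The mean of Tmprss5 in slow-growing PNs was 2.91 times that of controls, and its mean in fast-growing PNs was 2.32 times that of slow-growing PNs. For Egflam the corresponding ratios were 1.31 and 4.16. Serpine2 had ratios of 1.60 and 3.63, Cspg5 of 2.01 and 3.78, and Lbh of 1.43 and 2.59. The slow versus control and fast versus control comparisons share the 3 controls, and fast versus control log2 fold changes were 1.82 for Lbh, 2.47 for Serpine2, 2.84 for Cspg5, 2.38 for Egflam and 2.69 for Tmprss5.

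Most general SC markers were also called higher in PNs than in controls. Of 10 pan-Schwann markers 7 rose in PNs (edgeR), with a list median of 1.86 on the log2 scale and a range of 0.74 to 2.70, while the 5 genes ranged from 1.40 to 2.31. Gpm6b, a membrane glycoprotein of glia and neurons, rose by 1.79 (SE 0.30, edgeR adjusted p = 0.000644). Dhh, the SC ligand whose promoter drives Cre here, rose by 2.27 (SE 0.39, edgeR adjusted p = 0.000755), and Cdh19, a cadherin of the SC lineage, by 2.70 (SE 0.47, edgeR adjusted p = 0.00089). In fast versus slow none of the 10 passed edgeR, the list median was 0.28, and the range was −0.45 to 1.10, below the 1.21 to 2.05 of the 5 genes, a span their choice set. In that comparison 3 of the 10 had an unadjusted p under 0.05 and DESeq2 called 1, and without slow-growing PN 2 edgeR called 3.

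Myelin genes and immature or nonmyelinating SC genes differed in other ways. Of 14 myelin genes none passed in PNs versus controls by edgeR or DESeq2, with none at an unadjusted p under 0.05, and 4 fell in fast versus slow, where the list median was −1.16, 13 had an unadjusted p under 0.05 and DESeq2 called 12. Ncmap, a noncompact myelin protein, fell by 1.56 (SE 0.33, edgeR adjusted p = 0.0488), and Drp2, Fa2h and Pllp were the others. The count of myelin genes was 11 without slow-growing PN 4 and 0 without slow-growing PN 1, 3 or 5 or fast-growing PN 1, 3, 4, 5 or 6, and 2 with DESeq2's size factors or without the filter on low counts. Of 11 immature or nonmyelinating SC genes 7 rose in PNs, with a list median of 2.30, and 1 rose in fast versus slow, where 7 had an unadjusted p under 0.05 and DESeq2 called 6. The gene called by edgeR was Gfap, an intermediate filament of nonmyelinating SCs, with 5.22 ± 2.35 CPM among slow-growing and 29.1 ± 11.2 CPM among fast-growing PNs (SD, n = 5 and 6; log2 fold change 2.47, SE 0.37, edgeR adjusted p = 0.0317). No gene of this list was called without slow-growing PN 1, 3 or 5 or fast-growing PN 1, 3, 4 or 6, and 6 were called without slow-growing PN 2 and 2 without slow-growing PN 4. Without control 3, 4 were called in PNs versus controls. Chl1 and Ncam1, adhesion molecules of nonmyelinating SCs, rose in PNs by 3.15 (SE 0.59, edgeR adjusted p = 0.00155) and 2.30 (SE 0.36, edgeR adjusted p = 0.000408). Of 8 satellite glial cell genes 3 rose and 1 fell in PNs. Kcnj10, the potassium channel of these cells, rose by 2.84 (SE 0.68, edgeR adjusted p = 0.00768), and Gja1, their gap junction protein, fell by 1.21 (SE 0.28, edgeR adjusted p = 0.00632), and 1 of the 8 was called without control 3. None of the 8 passed in fast versus slow by edgeR, with 4 at an unadjusted p under 0.05 and 4 called by DESeq2, and edgeR called 3 without slow-growing PN 2 and 2 without slow-growing PN 4.

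**Figure D2:**
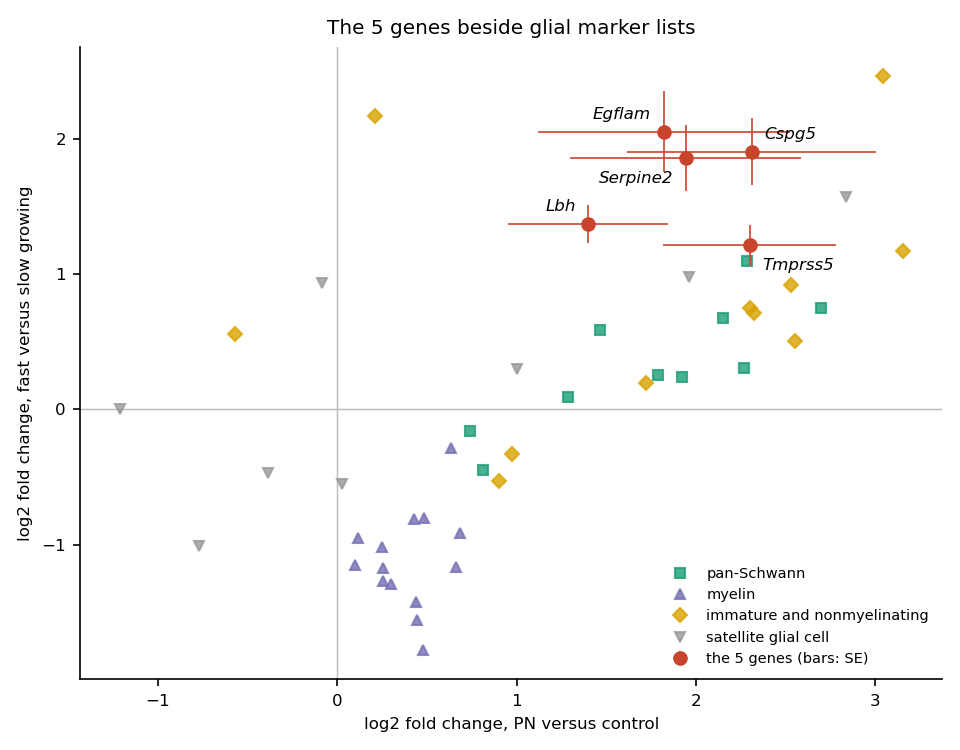
Log2 fold change in PNs versus controls (horizontal) against that in fast- versus slow-growing PNs (vertical) for the 5 genes, with SE bars, and for genes of 4 glial lists. The 5 genes lie at 1.21 to 2.05 on the vertical axis, which chose them, while pan-Schwann markers reach at most 1.10 and all 14 myelin genes lie below 0. Immature or nonmyelinating SC genes reach 2.47, above all 5 genes, and satellite glial cell genes reach 1.57, within their range.

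The 7 calls of list genes in fast versus slow rested on most of the libraries. Their number fell to 0 when slow-growing PN 1, 3 or 5 or fast-growing PN 1, 3, 4 or 6 was left out, and to 1 without fast-growing PN 5. It rose to 37 without slow-growing PN 2 and to 27 without slow-growing PN 4. In PNs versus controls the 54 calls of list genes fell to 25 without control 2 and to 19 without control 3.

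A pan-Schwann score, the mean log2(CPM + 1) of the 10 markers, was 7, 5.80 and 5.62 in controls. It was 7.86, 8.29, 7.42, 6.89 and 8.04 in slow-growing PNs and lay between 8.07 and 8.17 in fast-growing PNs. Slow-growing PN 2 had a higher score than any fast-growing PN. Relative to this score on the log2 scale, the mean of Serpine2 was 1.47 higher in fast- than in slow-growing PNs and that of Egflam 1.64 higher. The corresponding differences were 0.92 for Lbh, 0.96 for Cspg5 and 0.73 for Tmprss5. On this scale all 6 fast-growing PNs lay above every slow-growing PN for 4 of the genes, while for Lbh 3 of 6 did and the groups overlapped. These differences and counts come from the contrast that chose the genes. No share of all genes separated on this scale is given to set beside them. The same quantity in slow-growing PNs minus controls was −1.05 for Lbh, −0.92 for Serpine2, −1.08 for Cspg5, −1.30 for Egflam and −0.17 for Tmprss5. Slow-growing PNs below every control on this scale numbered 3 for Lbh, 5 for Serpine2, 4 for Cspg5, 5 for Egflam and 3 for Tmprss5. The slow-growing levels also entered the choice of the genes, so these values and counts are not independent of it. No share of all genes is given for them either. Relative to the score, fast-growing PNs averaged −0.62 for Lbh and −5.51 for Cspg5, against −0.49 and −5.40 in controls. Serpine2 averaged 0.48 against −0.07, Egflam −2.32 against −2.66 and Tmprss5 −3.37 against −3.93. The added 1 CPM understates changes of Cspg5, the scarcest gene, so the sign of its difference from controls on this scale cannot be read. Its edgeR log2 fold change in fast-growing PNs versus controls, which does not add 1 CPM, was 2.84. The mean pan-Schwann score was 6.14 in controls and 8.13 in fast-growing PNs.

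**Figure D3:**
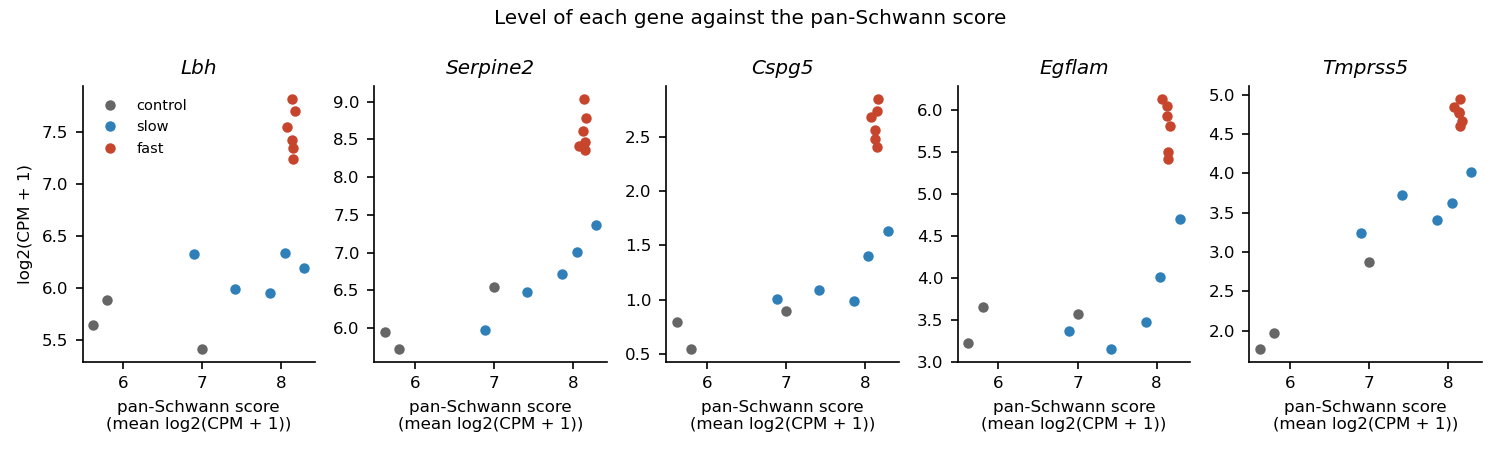
Level of each gene as log2(CPM + 1) against the pan-Schwann score of the same library, 1 point per library and 1 panel per gene, with colors for control, slow-growing and fast-growing tissue. The fast-growing PNs form a narrow column at scores of 8.07 to 8.17, and slow-growing PNs spread from 6.89 to 8.29. The vertical separation of these groups was fixed by the choice of the genes.

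With the pan-Schwann score as a covariate, none of the 5 genes was called in PNs versus controls (edgeR adjusted p from 0.608 to 0.915), and calls over all genes went from 4283 to 282. With muscle and fat scores as covariates none of the 5 was called either (edgeR adjusted p from 0.334 to 0.932), and calls over all genes went to 513. Every control had higher muscle and fat scores than every PN. With 3 controls, a fit with these scores can hardly tell the group from the tissue content. In fast versus slow the log2 differences under these covariates were 1.38 and 1.26 for Lbh, 1.52 and 1.93 for Serpine2, 1.64 and 2.07 for Cspg5, 1.74 and 2.05 for Egflam, and 1.04 and 1.48 for Tmprss5.

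Within the growth groups, the 5 genes were set against the pan-Schwann score and a skeletal muscle score over the 11 PNs, after subtracting each group's mean, which gave 10 relations. Serpine2 and the pan-Schwann score had the highest correlation, with Pearson's r of 0.87 (permutation p = 0.00288, adjusted p = 0.0288 over the 10) and Spearman's rho of 0.67 (permutation p = 0.0710, adjusted p = 0.237). Without slow-growing PNs 3 and 4, the libraries farthest from the median score, r was 0.65 (permutation, adjusted p = 0.324), and without slow-growing PNs 2 and 4, the farthest after subtracting the group means, it was 0.55 (permutation, adjusted p = 0.645), so the call rested on these libraries. The fast-growing PNs spanned only 8.07 to 8.17 in this score, so nearly all of its range came from the slow-growing PNs, from 6.89 to 8.29. Egflam and the muscle score had r of −0.81 (permutation p = 0.0119, adjusted p = 0.0594), with rho −0.76. For Serpine2 and the muscle score r was −0.72 (permutation, adjusted p = 0.160), with rho −0.85 (permutation, adjusted p = 0.0644), and without slow-growing PNs 1 and 3, the farthest from the median muscle score, r was −0.84 (permutation, adjusted p = 0.0193) and rho −0.93 (permutation, adjusted p = 0.0268). Without slow-growing PN 2 and fast-growing PN 2, the farthest after subtracting the group means, r was −0.51 (permutation, adjusted p = 0.645) and rho −0.43. Lbh had the lowest r with the pan-Schwann score, −0.07 (permutation p = 0.848), and Cspg5, Egflam and Tmprss5 had r of 0.64, 0.67 and 0.65, none of which passed the adjustment. Without slow-growing PNs 2 and 4 these were 0.36, 0.56 and −0.37.

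Of 15 skeletal muscle markers 8 fell in PNs versus controls (edgeR), with a list median of −2.91, and 2 and 0 were called without controls 2 and 3. The muscle score was 7.97 to 9.98 in controls and at most 7.87 in slow-growing and 7.37 in fast-growing PNs, and none of the 15 passed in fast versus slow by edgeR, with none at an unadjusted p under 0.05. Of 13 fat markers 5 fell in PNs (2 to 6 with 1 library left out), and in fast versus slow the list median was −3.62 with 1 of 12 called, Pnpla2, a lipase of fat cells, a call lost without slow-growing PN 1, 3 or 5 or any 1 of the fast-growing PNs, while 7 markers were called without slow-growing PN 4. In that comparison 11 of the 12 had an unadjusted p under 0.05, DESeq2 called 11, and edgeR called 0 with DESeq2's size factors or without the filter. The fat score ranged from 7.86 to 8.20 in controls, 1.59 to 6.86 in slow-growing PNs and 1.06 to 3.63 in fast-growing PNs. Slow-growing PN 4 had a fat score of 1.59, as low as fast-growing PNs, and fast-growing PN 2 had a muscle score of 7.37.

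No fibroblast or macrophage marker passed in fast versus slow by edgeR. All 6 fibroblast markers had a log2 fold change above 0 in fast versus slow, with a list median of 1.15. None was called by edgeR (at most 1 without 1 library), all 6 were at an unadjusted p under 0.05 and 4 were called by DESeq2. Without slow-growing PN 4, edgeR called 5 of them in PNs versus controls, against 0 with all libraries, where 4 had an unadjusted p under 0.05 and DESeq2 called 2. Dcn, decorin of the matrix, was at 2081 ± 862 CPM among slow-growing and 4162 ± 1199 CPM among fast-growing PNs (SD, n = 5 and 6). Of 9 macrophage markers none was called in fast versus slow by edgeR, 7 had an unadjusted p under 0.05, DESeq2 called 5, and the list median was 1.63, with a log2 fold change above 0 for 8 and of −0.77 for Cd163, a scavenger receptor, named here as the exception after its value was seen. Without slow-growing PN 2, edgeR called 7 of them, and 2 without fast-growing PN 2. Of the 9, 1 rose in PNs versus controls, Cx3cr1, a chemokine receptor of macrophages, a call lost without any 1 of the controls, slow-growing PN 2 or any 1 of the fast-growing PNs. Of 8 endothelial markers 3 fell in PNs, with a list median of −0.82 (1 without control 3 and 5 without slow-growing PN 5), and none passed in fast versus slow by edgeR or DESeq2 or at an unadjusted p under 0.05. The fibroblast score ranged from 7.51 to 8.50 in controls, 6.89 to 9.21 in slow-growing PNs and 9.30 to 10.2 in fast-growing PNs. The part of these cells in the levels of the 5 genes was not tested.

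Neuron markers passed the test in neither comparison. None of 13 was called by edgeR, and none had an unadjusted p under 0.05. In fast-growing PN 4, Snap25, a synaptic protein, was at 6.73 CPM, and the lowest of the other fast-growing PNs had 594 CPM. Nefl, a neurofilament subunit, was at 3.17 CPM there, against at least 488 CPM in the others. In that library Lbh was at 225 CPM, Serpine2 at 392, Cspg5 at 4.91, Egflam at 60.2 and Tmprss5 at 26.4, each within the range of the other fast-growing PNs or, for Lbh, above it. Transcripts of Y-linked genes were present in 2 of 3 controls, 3 of 5 slow-growing and 4 of 6 fast-growing PNs, 1 fast-growing PN had neither these at a mean of 10 CPM nor Xist at 100 CPM, and with a score of sex-linked transcripts as a covariate the fast versus slow differences of the 5 genes were 1.27 to 2.32 on the log2 scale.

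**Figure D4:**
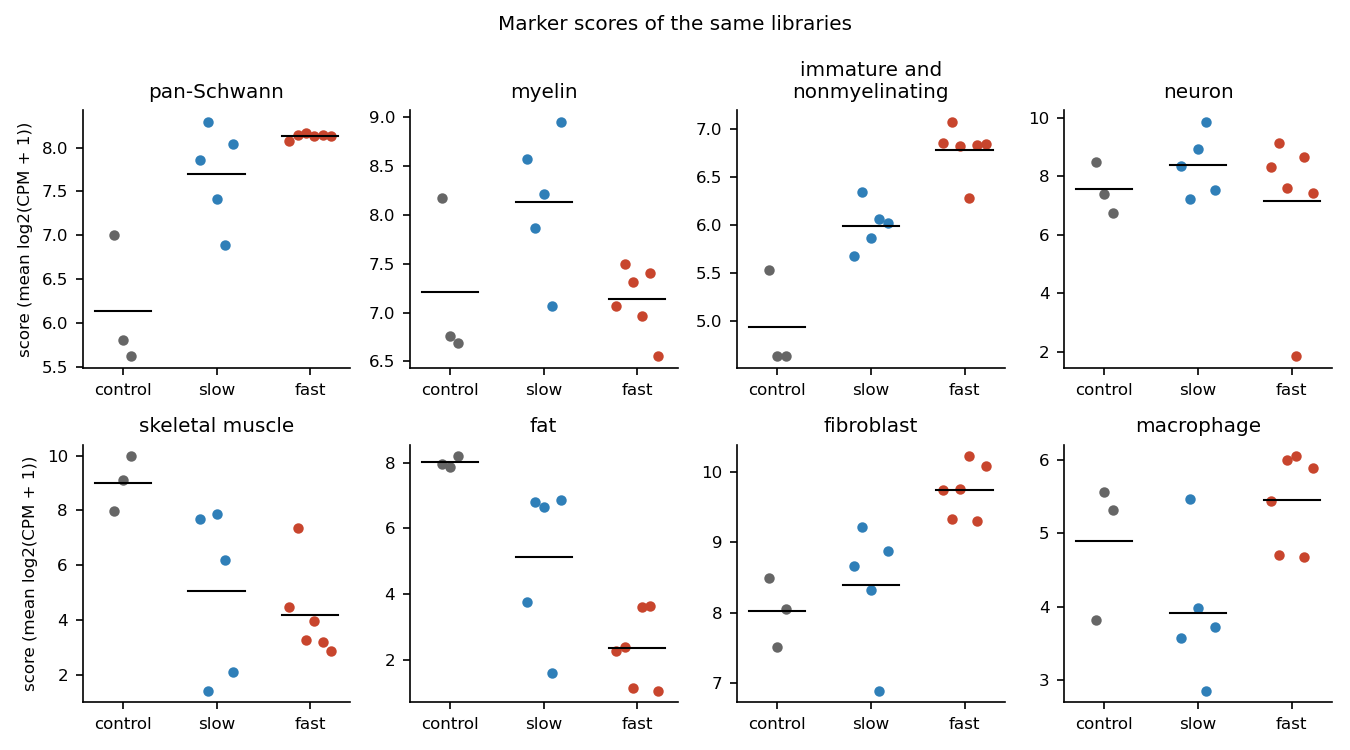
Marker scores (mean log2(CPM + 1) of each list) in every library by group, 1 point per library, with the group mean as a line. Muscle and fat scores are highest in controls, fibroblast scores are at least 9.30 in fast-growing PNs, and the neuron score of fast-growing PN 4 is 1.85.

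The genes most like the 5 across the 14 libraries were found by the root mean square difference of centered log2(CPM + 1), where 0 would be the same pattern. The added 1 CPM compresses the pattern of genes as low as Cspg5. Nearest to the mean of the 5 were B4galnt3 at 0.25, Oasl2 at 0.27, Mrgprf at 0.28, Arpc1b at 0.28 and Ephb2 at 0.30, against a median of 1.03 over all genes. B4galnt3 encodes a sugar transferase, Arpc1b a subunit of the Arp2/3 actin complex, and Ephb2 a receptor of ephrin-B ligands. Lbh and Cspg5 were nearest to each other at 0.25 on this scale. Their edgeR log2 fold changes in PNs versus controls, which do not add 1 CPM, differed more, at 1.40 and 2.31. Serpine2 and Egflam were 0.33 apart, and both had Mrgprf and Gm5086 among their nearest 3. Tmprss5 had other neighbors, led by Cdh20, a cadherin, at 0.24, then Cyp2j6 at 0.26 and Slitrk2 at 0.27. Cdh20 averaged 1.84 CPM in controls, 7.93 CPM among slow-growing and 15.6 CPM among fast-growing PNs.

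**Figure D5:**
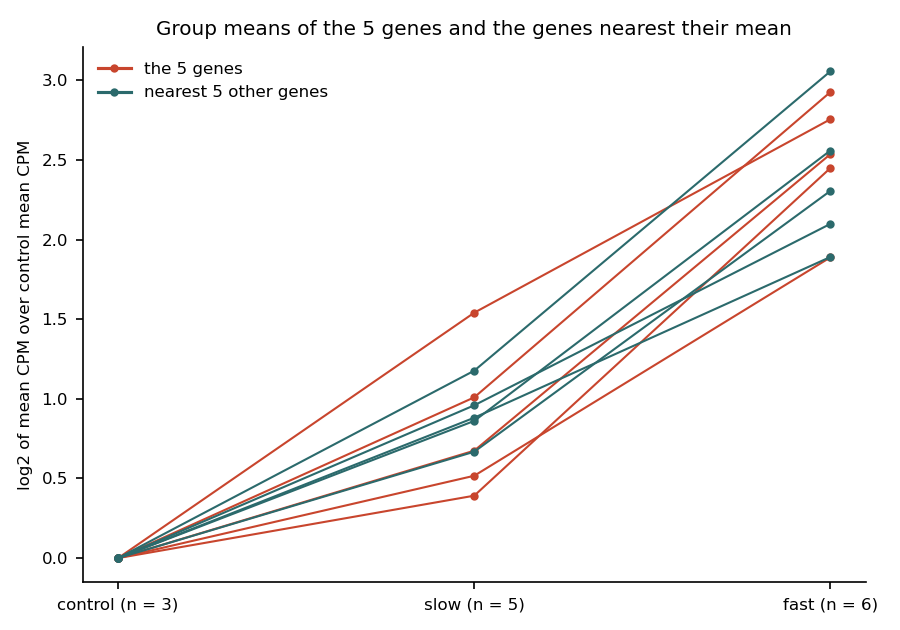
Log2 of each group's mean CPM over the control mean for the 5 genes and for the 5 other genes nearest to their mean pattern, with lines joining the groups. All 10 rise from control to slow and from slow to fast, and Tmprss5 is the highest at slow. The rise from slow to fast follows from the choice of the genes. The 5 others were picked for their likeness to that pattern.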

How the data were processed

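Total RNA of 14 mouse tissues was amplified (Ovation v2 kit of NuGEN). The authors called bases with CASAVA 1.4, checked reads with FastQC 0.11.0, aligned them to mm10 with TopHat2 2.0.9 and counted them per gene with featureCounts 1.5.2, per the submitters' processing notes. The gene annotation and strand setting are not given in the sources used here. The deposited values used are raw counts, whole numbers without normalization. A second deposited table of log2 values, made by the authors with edgeR 3.16.5, was not used. The 5 genes and the gene lists were chosen with earlier results of these data known.

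Counts were fitted in R 4.3.3 with edgeR 4.0.16 (filterByExpr, TMM factors, quasi-likelihood test, Benjamini-Hochberg adjustment over all genes tested, threshold 0.05), with the libraries of the comparison only. The genes were chosen on fast versus slow, so p-values for the 5 are given only for PNs versus controls, which is another contrast but contains the fast-growing PNs whose levels chose them. In each of 16 lists of markers and pathway genes, at most 4 called genes per comparison were named by lowest p, and in a list without calls the 2 with the highest mean CPM could be named. Two-sided permutation p-values for the relations within growth groups used 100000 resamples and log2(CPM + 1). Gene positions came from GENCODE, promoters from RefSeq. Alternatives used DESeq2 1.42.0, limma 3.58.1, other scalings and filters, covariates and each library left out. The fits were tested on simulated data with 100 genes changed at each of 2 sizes. For PNs versus controls (16109 genes) edgeR recovered 25% of genes with a true log2 change of 1 and 60% of those with 2, and 2.30% of its calls were false. For fast versus slow (15301 genes) it recovered 26% and 76%, and 1.92% of calls were false. The simulated counts varied independently from gene to gene, without the muscle, fat and neuron differences that the real libraries share across genes. These rates therefore do not cover such differences. A library of 9596773 to 17594164 counts limits what can be seen of a gene such as Cspg5, and floors cover counting error only.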

Additional observations from a re-analysis of the deposited data

Results flagged for a closer look

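None of the 5 genes was flagged in the groups of libraries that were checked. Over 42 groups of libraries that were checked, 4 marker scores, each the mean log2(CPM + 1) of a list, had 1 fast-growing PN whose distance from the nearest other library was large for the range of the group. Chance alone flags about 1 in 20 such groups.

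The neuron marker score was 1.847 in fast-growing PN 4, against 7.418 to 9.137 in the other fast-growing PNs. The score of immature and nonmyelinating Schwann cell genes was also lowest in fast-growing PN 4, at 6.285 against 6.823 to 7.077. The skeletal muscle score was highest in fast-growing PN 2, at 7.369 against 2.86 to 4.466. The score of the plasminogen, thrombin and serpin partners of Serpine2 was highest in fast-growing PN 6, at 4.742 against 3.998 to 4.247, and Serpine2 itself was also highest in that library, at 526 CPM.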

How the results depend on the processing

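No paired analysis was possible because the labels give controls and PNs no replicate numbers in common. In PNs versus controls, 9 other settings and 14 fits without 1 library were compared. With muscle and fat scores as covariates the log2 fold changes were −0.20 for Lbh, −0.42 for Serpine2, 0.15 for Cspg5, −1.11 for Egflam and 1.12 for Tmprss5. Their SEs were 0.54 to 0.87, and 0 of the 5 genes were called. With the pan-Schwann score they were 0.36, −0.99, −0.26, −1.12 and 0.37, with SEs of 0.56 to 1.36 and again 0 called. Calls over all genes fell from 4283 to 513 and to 282. Cspg5 was not called by limma-voom (2.06). Egflam was called by DESeq2 (1.76) and in the fit of 3 groups (1.40). Leaving out 1 library gave 1 to 5 calls among the 5 genes and 2061 to 4779 over all genes. The log2 fold changes were then 1.27 to 1.53 for Lbh, 1.78 to 2.22 for Serpine2 and 2.09 to 2.52 for Cspg5. They were 1.66 to 1.92 for Egflam and 2.05 to 2.85 for Tmprss5. Calls of list genes ranged from 19 to 60.

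In fast versus slow, the moves larger than the SD within growth groups were those of Cspg5 to 1.64 with the pan-Schwann score and of Tmprss5 to 1.48 with muscle and fat scores, while Serpine2 (1.52) and Egflam (1.74 with the pan-Schwann score) moved by more in log2 units but by less than their own SD. The 7 list genes called became 4 with DESeq2's size factors, 4 without the filter, 53 with DESeq2's test and 0 to 37 without 1 library. Over all genes, 196 calls (124 higher and 72 lower) became 1570 with DESeq2's test, 34 with limma-voom, 130 with DESeq2's size factors and 423 in the fit of 3 groups. As covariates, the sex-linked score gave 494 calls, the pan-Schwann score 279 (87 higher and 192 lower) and muscle and fat scores 0. Without 1 library, 2 to 1194 were called. Removing length and GC trends, a correction chosen after seeing the data, gave 139 higher and 151 lower. Within growth groups, r of Lbh and the pan-Schwann score became 0.24 without slow-growing PNs 3 and 4, and r of Serpine2 and the muscle score −0.84 without slow-growing PNs 1 and 3, which then passed (permutation, adjusted p = 0.0193). Without the 2 libraries farthest from the median after subtracting group means, an alternative chosen after seeing the data, 0 of the 10 relations passed, and r with the pan-Schwann score was 0.32 for Lbh, −0.37 for Tmprss5 and 0.55 for Serpine2. The cause of these changes was not tested. Depth limits Cspg5 most, with 5 to 10 counts per control.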
